A study of Homo sapiens with 7 samples.

Results

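The 4 mature miRNAs described here, hsa-miR-105-5p, hsa-miR-105-3p, hsa-miR-767-5p and hsa-miR-767-3p (below without the species prefix), are the arms of 3 hairpins that lie together in an intron of GABRA3, the gene of an alpha subunit of the GABA-A receptor. They were taken by name from the count files, where they are 4 of 2652 mature miRNAs, and all 4 passed the filter of a mean of at least 10 reads per library that left 458 miRNAs for testing. The libraries are small RNA sequencing of HepG2, an established human hepatocellular carcinoma line. One group is wild-type, untreated HepG2 at 0 h, with 1 library. The other 6 libraries are labelled TEAD1 knockdown and came from HepG2 treated for 24, 36 or 48 h with siRNA 1 or siRNA 2, both directed against TEAD1, a DNA-binding factor of the Hippo pathway. Each time therefore has 2 libraries, 1 per siRNA. No library of cells given a control siRNA was analysed here, so effects of transfection, of time and of TEAD1 silencing cannot be told apart. TEAD1 mRNA is not measured by these libraries. Separate cultures are not stated in the labels. The 2 libraries of a time got different siRNAs, and the tests by time have no term for the siRNA. Their p-values thus rest on a spread that mixes differences between the siRNAs with variation that may be technical.

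GABRA3 and the miRNAs in it belong to the cancer-testis class of genes, which are silent in most adult tissues, active in the germ line and reactivated in some tumours, often where promoter methylation is lost. miR-105-5p is known to repress the tight-junction protein ZO-1. miR-767-5p is known to repress TET dioxygenases, the enzymes that oxidise methylated cytosine. Each hairpin is cut into a 5p and a 3p arm, and base-pairing of an arm with its targets is led by its seed, bases 2 to 8.

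The mature sequences are shown because the 4 arms have 4 different seeds, which are in capitals (5′ to 3′, as deposited and identical to the RefSeq entries).
miR-105-5p: uCAAAUGCucagacuccuguggu
miR-105-3p: aCGGAUGUuugagcaugugcua
miR-767-5p: uGCACCAUgguugucugagcaug
miR-767-3p: uCUGCUCAuaccccaugguuucu
Of the other miRNAs in the files, miR-7853-5p alone shared the seed of miR-105-5p, and it had 0 reads in all 7 libraries. None shared the seed of any of the other three arms. The 7 seed bases of miR-767-5p also occur in the miR-29 family, miRNAs that are likewise known to repress TET enzymes. There they lie 1 base further in, at positions 3 to 9. These bases are in capitals in the family's sequences.
miR-29a-3p: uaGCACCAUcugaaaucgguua
miR-29b-3p: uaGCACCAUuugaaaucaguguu
miR-29c-3p: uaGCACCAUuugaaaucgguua

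The hairpins are shown in their order along the GABRA3 transcript, with the mature arms in capitals (5′ to 3′, RefSeq, GRCh38.p14).
MIR105-2: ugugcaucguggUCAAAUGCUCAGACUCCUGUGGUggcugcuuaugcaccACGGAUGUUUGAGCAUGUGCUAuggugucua
MIR767: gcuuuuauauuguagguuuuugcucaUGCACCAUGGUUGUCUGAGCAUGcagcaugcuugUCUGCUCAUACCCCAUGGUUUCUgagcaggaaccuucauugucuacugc
MIR105-1: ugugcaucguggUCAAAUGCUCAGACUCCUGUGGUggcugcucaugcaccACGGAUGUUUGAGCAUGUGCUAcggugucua
The miR-105 hairpins are 81 bases long and 97.5% identical. Counted from the 5′ end, with the base of MIR105-1 first, MIR105-2 carries C43U and C73U, both outside the mature arms. Reads of miR-105 from the 2 copies therefore cannot be told apart, and each miR-105 value is the sum of both. miR-105-3p and miR-767-5p share the run UGAGCAUG, which 4 of the 2652 miRNAs hold. Both miR-767 arms hold the run CCAUGGUU, which no other miRNA in the files has.

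All 3 hairpins lie on the minus strand of chromosome X (GRCh38.p14): MIR105-2 at chrX:152394412-152394492, MIR767 at chrX:152393421-152393529 and MIR105-1 at chrX:152392219-152392299. In the GENCODE 29 annotation they fall in intron 1 of the long GABRA3 transcript (chrX:152364597-152451145, 86549 bases) and overlap no exon. They span 2274 bases, with gaps of 882 and 1121 bases between them. They begin 56866 to 59059 bases after the start of that transcript, and they end 2722 to 4915 bases before the start of a shorter GABRA3 transcript with a first exon of its own. Within 500 kb on either side of the 3 hairpins the annotation holds 7 protein-coding MAGEA genes and 4 CSAG genes, both cancer-testis families, and the receptor subunit genes GABRE and GABRQ.

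**Figure D1:**
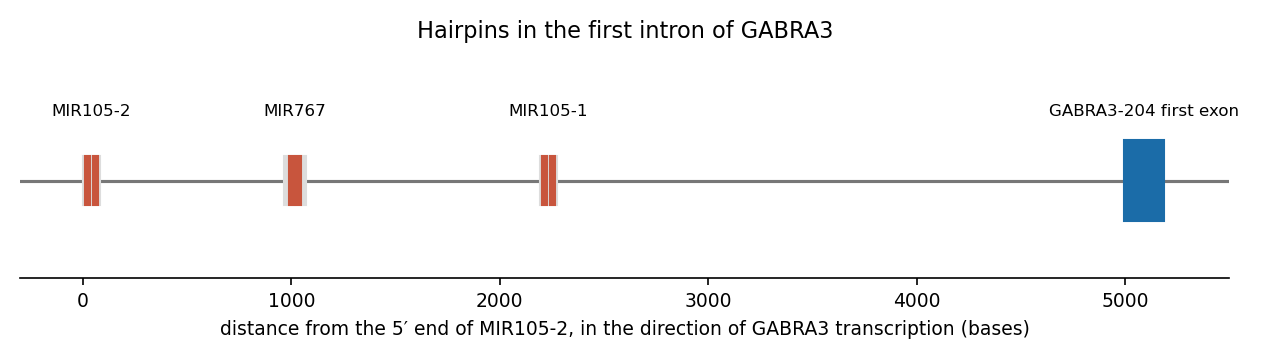
Positions of the 3 hairpins (pale boxes, mature arms in red) and the first exon of a shorter GABRA3 transcript (blue), drawn to scale as distance in bases from the 5′ end of MIR105-2 in the direction of GABRA3 transcription. The hairpins span 2274 bases and the exon begins 2722 bases beyond the end of MIR105-1, the nearest of them.

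Libraries held 13134601 to 15591345 reads, of which 6171851 were assigned to a miRNA in the untreated library and 1920832 to 3739729 in the siRNA-treated ones. The share given to no feature was 56.9% in untreated cells and 73.5% to 86.6% after siRNA treatment. The libraries of 36 h stood apart: over all tested miRNAs, log2 levels under siRNA 2 and siRNA 1 differed with an SD of 1.22 at 36 h, against 0.57 at 24 h and 0.50 at 48 h. In siRNA 1 at 36 h the muscle miRNA miR-1-3p reached 867 CPM, against 20.7 to 52.4 CPM in the other libraries. The germ-cell miRNA miR-34c-5p reached 40.5 CPM (80 reads) there, against 1.31 to 5.85 CPM. Other miRNAs of these lists were near the limit of detection in that library. For muscle, miR-206 had 13 reads, miR-133a-3p 5 and miR-133b 0. For germ cells, miR-449a had 6 reads, miR-202-5p 2, miR-34b-3p 1 and miR-449b-5p 0. By a chi-square of their counts per degree of freedom, siRNA 1 at 36 h lay nearest to siRNA 1 at 24 h (88.4) and siRNA 2 at 36 h nearest to siRNA 2 at 48 h (71.8), while the 36 h libraries differed from each other by 382. The labels of these libraries are taken as given, and a mix-up of samples or times was not tested, so every 36 h value below carries that doubt. The part of these differences in the results was not tested, and fold changes over several times are given with and without the 36 h libraries.

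miR-105-5p was the most abundant of the 4 arms in every library. It stood at 410 CPM (read counts scaled to the TMM-adjusted total of miRNA reads) in untreated cells, ranking 96 of all miRNAs by level, with 2200 reads. The siRNA 1 libraries of 24, 36 and 48 h gave 346, 399 and 618 CPM, and the siRNA 2 libraries gave 394, 897 and 671 CPM in the same order, which is kept below. Both libraries of 24 h were thus below untreated and both of 48 h above it, while those of 36 h lay on either side. The counting intervals of siRNA 2 at 24 h (370 to 420 CPM) and siRNA 1 at 36 h (372 to 428 CPM) included the untreated value. Over the 6 siRNA-treated libraries the mean was 554 ± 214 CPM (SD, n = 6), with 3 above untreated. The pair of 36 h gave 648 ± 352 CPM (SD, n = 2), wider than the whole distance between the mean of 24 h (370 ± 34.2 CPM) and that of 48 h (645 ± 37.7 CPM).

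miR-767-5p, the TET-repressing arm, varied less. It stood at 140 CPM in untreated cells (752 reads), at 166, 176 and 148 CPM with siRNA 1 and at 125, 188 and 187 CPM with siRNA 2. Its level was above untreated in 5 of 6 libraries, the exception being siRNA 2 at 24 h, and the values of 24 and 48 h overlapped. All 6 libraries above untreated, which miR-767-5p missed by 1, was the case for 10.3% of tested miRNAs. The mean was 165 ± 24.3 CPM (SD, n = 6).

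miR-105-3p, the lesser arm of the miR-105 hairpins, stood at 51.1 CPM in untreated cells (274 reads; 95% interval 45.2 to 57.5). Levels were 45.2, 45.0 and 38.0 CPM under siRNA 1 and 36.8, 35.1 and 38.0 CPM under siRNA 2. All 6 siRNA-treated libraries lay below untreated, as they did for 13.5% of the 458 tested miRNAs. The counting intervals of the siRNA 1 libraries of 24 and 36 h (38.3 to 53.0 and 36.2 to 55.4 CPM) included the untreated value. The mean was 39.7 ± 4.35 CPM (SD, n = 6).

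miR-767-3p was the rarest arm, at 9 to 33 reads per library. It stood at 6.15 CPM in untreated cells (95% interval 4.23 to 8.64), at 5.02, 4.55 and 13.5 CPM with siRNA 1 and at 8.78, 7.84 and 10.4 CPM with siRNA 2. Both libraries of 48 h were above both of 24 h, as they were for 28.2% of tested miRNAs. The counting interval of siRNA 2 at 48 h (6.75 to 15.4 CPM) overlapped those of untreated and of siRNA 2 at 24 h (5.44 to 13.4 CPM). Every value was above the limit that a count of 0 allows (3 reads, 0.559 CPM in untreated and up to 1.52 CPM in siRNA-treated libraries). All intervals here are exact Clopper-Pearson intervals and cover counting error only, since the reads carry no molecular identifiers.

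The order of the arms was miR-105-5p, miR-767-5p, miR-105-3p and miR-767-3p in each of the 7 libraries, and no neighbours in that order had overlapping intervals in any library. The arms differ by at most 1 base in length. Ligation takes up small RNAs unequally, so the order is one of reads. Summed over the 4 arms, the cluster gave 607 CPM in untreated cells, 562, 624 and 818 CPM with siRNA 1 and 565, 1127 and 907 CPM with siRNA 2.

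**Figure D2:**
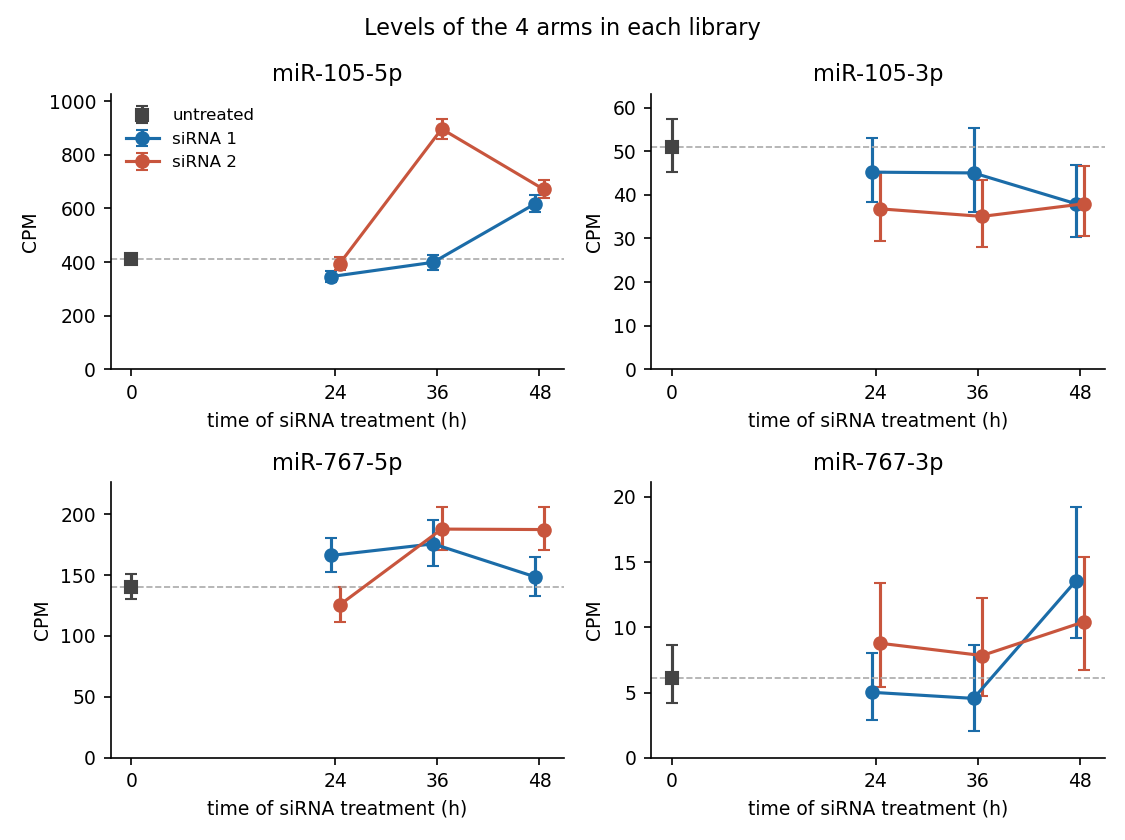
Level of each arm (CPM, linear axes from 0) against hours of siRNA treatment, with 1 point per library and 95% Clopper-Pearson intervals; the dashed line marks the untreated library. Both 48 h libraries of miR-105-5p (618 and 671 CPM) sit above untreated (410 CPM), whereas all 6 siRNA-treated libraries of miR-105-3p sit below it.

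The first comparison asked whether the arms differed between siRNA-treated and untreated cells. None of the 4 passed the test over the 3 times together. The log2 fold change was 0.39 ± 0.44 (SE) for miR-105-5p, 0.23 ± 0.32 for miR-767-5p, -0.36 ± 0.33 for miR-105-3p and 0.38 ± 0.56 for miR-767-3p, with an adjusted p of 0.900 for each by edgeR's quasi-likelihood test. Across all 458 miRNAs 0.0% were called, 23 (5.02%) had an unadjusted p under 0.05, and DESeq2 called 1. Without both 36 h libraries the values were 0.31 ± 0.26, 0.21 ± 0.28, -0.32 ± 0.32 and 0.60 ± 0.53 in the same order (edgeR adjusted p from 0.592 to 0.754). The value of miR-105-5p was 0.15 without siRNA 2 at 36 h alone and 0.57 without siRNA 1 at 36 h, and that of miR-767-3p was 0.22 without siRNA 2 at 36 h. With all libraries, the median log2 fold change of the 4 was 0.30, against -0.05 over all tested miRNAs. The intervals of the differences were wide: for miR-105-5p the 95% interval ran from -0.66 to 1.43.

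By time (24, 36 and 48 h), the log2 fold changes of miR-105-5p against untreated were -0.15 ± 0.48, 0.66 ± 0.50 and 0.65 ± 0.50 (edgeR adjusted p = 0.997, 0.946 and 0.547). miR-767-5p stood at 0.06 ± 0.36, 0.37 ± 0.37 and 0.26 ± 0.36. miR-105-3p stood at -0.31 ± 0.38, -0.35 ± 0.39 and -0.43 ± 0.38. miR-767-3p stood at 0.15 ± 0.63, 0.02 ± 0.64 and 0.96 ± 0.64. None passed at any time (lowest edgeR adjusted p = 0.50, miR-767-3p at 48 h). Of all 458 miRNAs 0.0% were called at each time, with 11 (2.4%), 19 (4.15%) and 53 (11.6%) at an unadjusted p under 0.05 and 1, 7 and 12 calls by DESeq2. At 36 h the value of miR-105-5p came from the siRNA 2 library: without it the log2 fold change was -0.043, and without the siRNA 1 library it was 1.16. Each of these values rests on a lone 36 h library.

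The comparison of 48 h with 24 h needs no untreated library. miR-105-5p was higher in both libraries of 48 h than in both of 24 h, as were 28.2% of tested miRNAs, with a log2 fold change of 0.80 ± 0.40 (95% interval -0.14 to 1.74, edgeR adjusted p = 0.316). miR-767-3p also did not overlap between the times, at 0.81 ± 0.53 (adjusted p = 0.412). miR-767-5p (0.20 ± 0.30) and miR-105-3p (-0.11 ± 0.32) overlapped between the times. No miRNA was called by edgeR (0.0%), 84 (18.3%) had an unadjusted p under 0.05, and DESeq2 called 23.

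The fit without both 36 h libraries lacked the pair that differed most between the siRNAs. It took its spread almost wholly from all miRNAs together, so its p-values may be too small. Leaving out both 36 h libraries changed the call of miR-105-5p. It was then higher at 48 h than at 24 h by 0.79 ± 0.23 (edgeR adjusted p = 0.00393), in a fit that called 28.7% of 467 miRNAs and 10.9% as higher. Against untreated its value at 48 h was 0.70 ± 0.29 (adjusted p = 0.0577), with 25.1% called. Scaled by all reads of a library in place of miRNA reads, and without the 36 h libraries, the difference between 48 and 24 h was 0.64 ± 0.46 (adjusted p = 0.439). The other three arms were not called in any comparison of the TMM-scaled fit without the 36 h libraries, in which 10.7% of miRNAs were called over all times and 2.78% at 24 h.

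siRNA 2 and siRNA 1 were compared over the 3 times, with 435 miRNAs. The log2 difference was 0.52 ± 0.30 for miR-105-5p, 0.40 ± 0.50 for miR-767-3p, 0.04 ± 0.28 for miR-767-5p and -0.19 ± 0.31 for miR-105-3p (edgeR adjusted p = 0.992 for each). edgeR called 0.0% of miRNAs, 6 (1.38%) had an unadjusted p under 0.05, and DESeq2 called 0. The 95% interval for miR-105-5p, -0.19 to 1.23, leaves room for a difference of either sign. Without both 36 h libraries the differences were 0.26 ± 0.28 for miR-105-5p, 0.28 ± 0.57 for miR-767-3p, 0.07 ± 0.30 for miR-767-5p and -0.05 ± 0.36 for miR-105-3p (edgeR adjusted p = 0.998 for each). With 1 library left out, miR-105-5p ranged from 0.20 (without siRNA 1 at 36 h) to 0.73 (without siRNA 1 at 48 h) and miR-767-3p from 0.19 (without siRNA 2 at 24 h) to 0.84 (without siRNA 1 at 48 h).

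**Figure D3:**
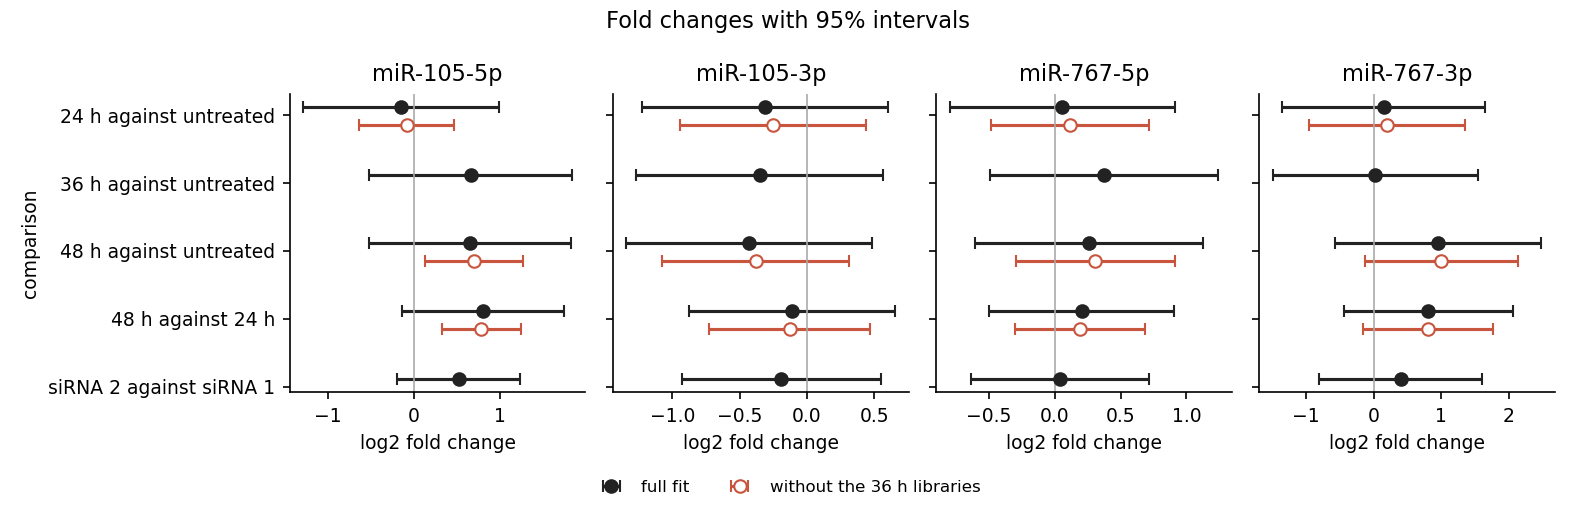
Log2 fold change of each arm in 5 comparisons with 95% intervals, from the fit of all libraries (black). Values from the fit without both 36 h libraries (red, open) are drawn for 24 and 48 h against untreated and 48 h against 24 h only. Only the interval of miR-105-5p lies wholly above 0, at 48 h against untreated and against 24 h, and only without the 36 h libraries. Its difference from untreated was not called there (edgeR adjusted p = 0.0577).

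The scale of the values matters for their sign against untreated cells. With all reads of a library as the scale, the median of all tested miRNAs over the 3 times was -1.13, and all 4 arms were below untreated: miR-105-5p by -0.68, miR-767-5p by -0.84, miR-767-3p by -0.72 and miR-105-3p by -1.45 (edgeR adjusted p = 0.0415 for the last, in a fit that called 120 miRNAs). Relative to that median, miR-105-3p alone of the 4 was lower. The levels above are therefore levels among miRNA reads.

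The arms of a miRNA are counted in the same library, so their ratio does not depend on the scaling. miR-105-3p made up 11.1% of miR-105 reads in untreated cells (95% interval 9.86 to 12.4). The siRNA 1 libraries gave 11.6%, 10.1% and 5.79%, and those of siRNA 2 gave 8.54%, 3.76% and 5.35%. The share was below untreated in 5 of 6 libraries, and at 48 h both intervals (4.67 to 7.10 and 4.33 to 6.53) lay below the untreated one. miR-767-3p made up 4.20% of miR-767 reads in untreated cells, 2.94%, 2.53% and 8.36% with siRNA 1 and 6.54%, 4.01% and 5.27% with siRNA 2, with no such order.

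**Figure D4:**
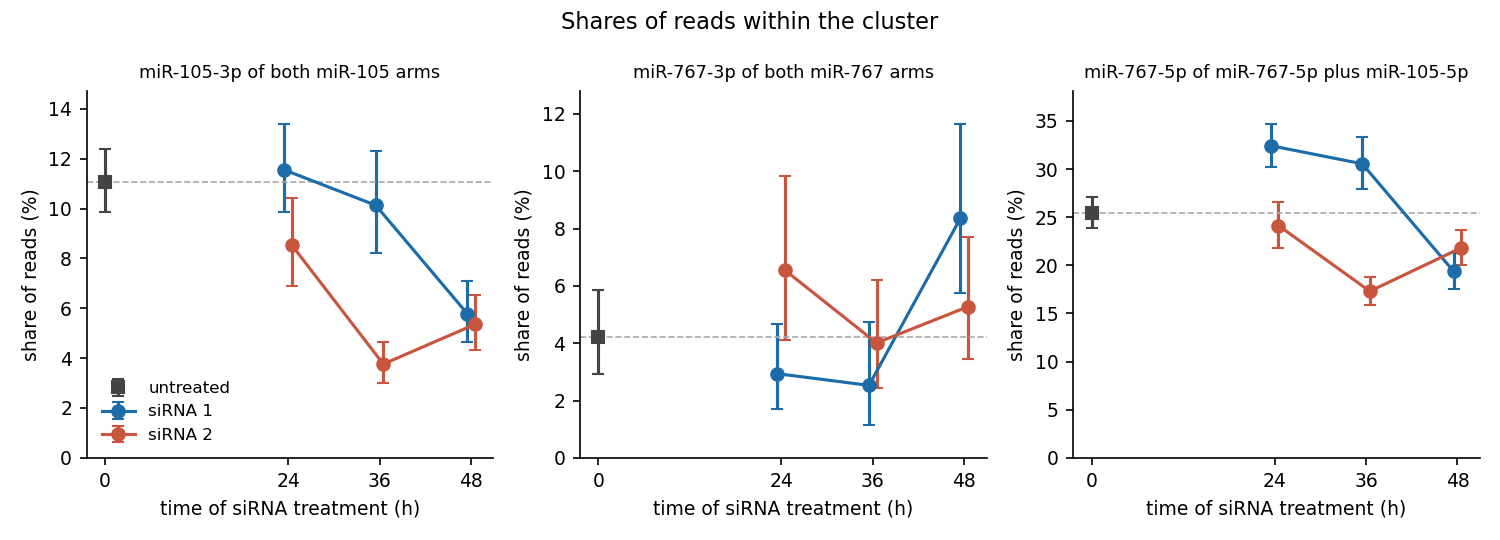
Share of reads (%, axes from 0) of miR-105-3p among both miR-105 arms, of miR-767-3p among both miR-767 arms and of miR-767-5p among the 5p arms, against hours of siRNA treatment, with 1 point per library, 95% Clopper-Pearson intervals and the untreated level dashed. The miR-105-3p share at 48 h is 5.79% and 5.35%, against 11.1% untreated.

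The change of arm ratio was set beside that of all 110 hairpins with both arms tested, as the log2 ratio of the lesser to the major arm with 0.5 reads added. For miR-105 the ratio at 48 h was lower than at 24 h by -0.90, place 28 from the lowest, and both libraries of 48 h were below both of 24 h. That was so for 33.6% of the hairpins, and the median change was -0.09. For miR-767 the change was 0.62, place 89, and the libraries of the times overlapped. Such a fall was thus not particular to miR-105. The ratio between hairpins also varied: miR-767-5p made up 25.5% of the reads of both 5p arms in untreated cells, 32.4%, 30.5% and 19.4% with siRNA 1, and 24.1%, 17.3% and 21.8% with siRNA 2.

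**Figure D5:**
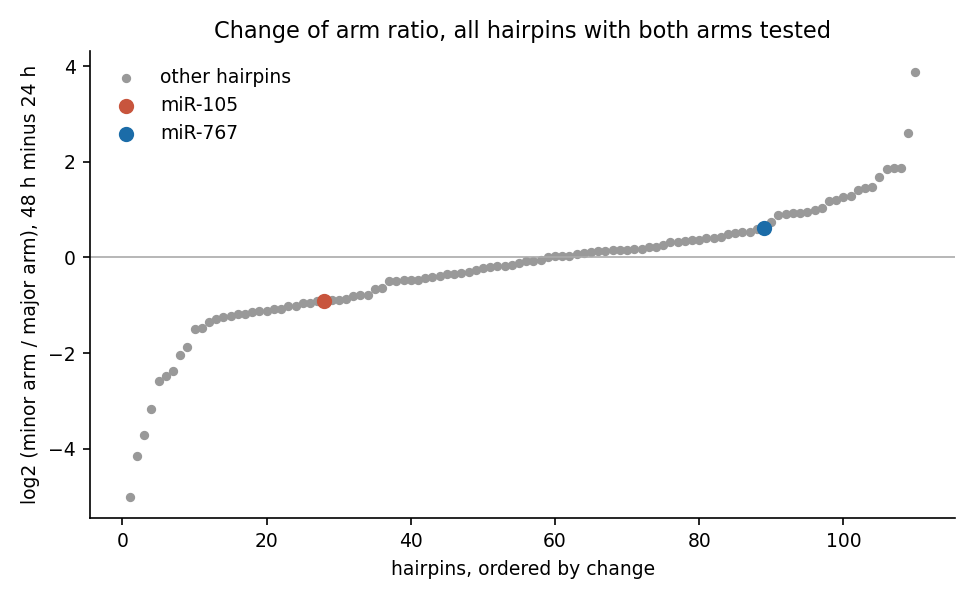
Change in the log2 ratio of the lesser to the major arm, 48 h minus 24 h (mean of 2 libraries each), for 110 hairpins in order of the change. miR-105 (-0.90) and miR-767 (0.62) lie on opposite sides of 0, within the range of the other hairpins.

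The arms did not follow each other closely across the 7 libraries, which share 1 untreated library and differ in depth. The Pearson r of log2 CPM was -0.70 between the arms of miR-105, -0.16 between those of miR-767 and 0.53 between the 5p arms, given as descriptions. These values include the 36 h libraries, without which the 5 that remain are too few for a correlation. The miRNAs most like miR-105-5p were miR-3615 (0.98), miR-1180-3p (0.98) and miR-6777-3p (0.97). miR-3615, for one, stood at 196 CPM untreated and at 365 and 368 CPM at 48 h. Those most like miR-105-3p were miR-675-5p (0.95), an arm of the imprinted H19 transcript, the hepatocyte miRNA miR-122-5p (0.91) and miR-181d-5p (0.90). Those most like miR-767-5p were miR-125b-5p (0.95), miR-191-5p (0.92) and miR-505-3p (0.92), and those most like miR-767-3p were miR-139-5p (0.97), miR-149-5p (0.92) and miR-135b-5p (0.92).

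GABRE, the neighbouring receptor gene, hosts miR-224 and miR-452, whose 4 arms were all tested and none called in the fit of all libraries (0.0% of all miRNAs). miR-452-5p stood at 2645 CPM untreated and was lower in all 6 siRNA-treated libraries, at 1079 to 1727 CPM, with a log2 fold change of -0.90 ± 0.29 (edgeR adjusted p = 0.900). Without the 36 h libraries it was called lower, at -0.84 ± 0.22 (adjusted p = 0.00378), as were 7.07% of all miRNAs. miR-224-5p stood at 3322 CPM untreated and 2122 to 4242 CPM after treatment, and miR-224-3p and miR-452-3p at 7.46 and 69.9 CPM untreated. The median log2 fold change of the 4 was -0.11 over the 3 times, against 0.30 for the GABRA3 arms.

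Outside the cluster, chromosome X had 146 miRNAs in the files, of which 88 had a read and 40 were tested. Their median log2 fold change from 24 to 48 h was -0.50, with 29 of 40 below 0, against 0.03 over all tested miRNAs and 0.50 for the 4 GABRA3 arms. None was called with all libraries, and 9 had an unadjusted p under 0.05. Without those of 36 h, 15 were called lower and 1 higher, against 17.8% and 10.9% of all miRNAs. The other miRNA clusters listed were near the limit of detection: 5 of 20 miRNAs of the miR-506 to miR-514 cluster, 3 of 10 of the miR-888 cluster and 3 of 8 of the miR-371 to miR-373 cluster had a read, none above 15 reads in a library. None of these was tested.

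The miR-29 family shares the seed bases of miR-767-5p at a shifted position. In every library miR-29a-3p was more abundant than miR-767-5p and miR-29c-3p less abundant. miR-29b-3p was more abundant except under siRNA 2 at 36 and 48 h, where miR-767-5p stood at 188 and 187 CPM. miR-29a-3p stood at 1389 CPM untreated and at 1507 to 1878 CPM after treatment. miR-29b-3p stood at 387 CPM untreated, at 409, 570 and 159 CPM with siRNA 1 and at 1277, 76.3 and 148 CPM with siRNA 2. From 24 to 48 h its log2 fold change was -2.46 ± 0.93 (edgeR adjusted p = 0.250) and that of miR-29c-3p, at 3.30 to 30.5 CPM, was -1.28 ± 0.74 (adjusted p = 0.390). Both were called lower without the 36 h libraries (edgeR adjusted p = 4.46e-21 and 0.0169), where miR-767-5p stood at 0.19 ± 0.25. These p-values rest on a spread shared over all miRNAs. The gap of miR-29b-3p between the 24 h libraries, 409 and 1277 CPM, hardly enters them.

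Markers of other cell types varied between the libraries. The summed level of 6 fibroblast and endothelial miRNAs was 458 CPM untreated and 442 to 1067 CPM after treatment, and that of 4 neuronal miRNAs 3937 CPM and 3445 to 7824 CPM, with miR-124-3p at 0 reads throughout. The 6 blood miRNAs summed to 15.3 CPM and 16.3 to 78.8 CPM, with miR-223-3p at 0 reads, and only miR-451a passed the count filter. Among the neuronal miRNAs miR-128-3p had the highest mean count. At 48 h against untreated the log2 fold change was 0.94 ± 0.47 for miR-128-3p and 0.55 ± 0.45 for miR-9-5p. For miR-137-3p it was -0.72 ± 0.80. The neuronal and blood sums thus do not stand for every member of their lists. The neuronal and blood sums were high in the same 3 libraries as miR-105-5p. The neuronal sum was 7824 CPM under siRNA 1 at 48 h and 7477 and 7205 CPM under siRNA 2 at 36 and 48 h, against 3445 to 3937 CPM in the other 4 libraries. The blood sum in those 3, in the same order, was 46.3, 78.8 and 37.1 CPM, against 15.3 to 25.8 CPM, where miR-105-5p stood at 618, 897 and 671 CPM against 346 to 410 CPM. The part of these markers in the miR-105-5p values was not tested. The 4 muscle miRNAs summed to 23.1 CPM and 21.0 to 876 CPM, and the 5 of testis germ cells to 5.03 CPM and 1.31 to 45.0 CPM, with miR-449b-5p at 0 reads. The highest of both sums came in siRNA 1 at 36 h, mostly from miR-1-3p (867 CPM) and miR-34c-5p (40.5 CPM) alone. Hepatocyte miRNAs were present in every library (21012 CPM untreated, 16102 to 27464 CPM treated). Most of that sum was miR-148a-3p, at 18414 CPM untreated and 13919 to 25518 CPM treated. miR-122-5p, the defining one, was low at 45.5 CPM untreated and 3.75 to 47.6 CPM treated. The fibroblast and endothelial sum (siRNA 1 first) was 442 and 505 CPM at 24 h, 1064.5 and 1067 CPM at 36 h and 839 and 836 CPM at 48 h. It was thus above untreated in the libraries where miR-105-5p was high, and also in siRNA 1 at 36 h, where miR-105-5p was not. GC content was 47.8% in miR-105-5p, 45.5% in miR-105-3p, 52.2% in miR-767-5p and 47.8% in miR-767-3p, against a median of 50% over tested miRNAs. Across miRNAs GC had an r of 0.37 with the change from 24 to 48 h and 0.05 with that from untreated to 24 h, a description over miRNAs that are not independent replicates.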

How the data were processed

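Small RNA libraries were made with an NEB ligation kit from total RNA, per the labels' protocols. The authors deposited 1 table of raw counts for each library, with a row per mature miRNA and no normalization; its 5 summary lines are no miRNAs and were not tested, and they entered library sizes only in the alternative scaled by all reads. For the aligner, counter and build: not given in the sources used here. Libraries were grouped by the labels. The members and lists were chosen with earlier results of these data known. CPM used TMM-adjusted library sizes, and log2 CPM a prior count of 2. Tests were edgeR 4.0.16 quasi-likelihood F-tests (R 4.3.3) on miRNAs averaging 10 or more reads per library, with Benjamini-Hochberg adjustment over all of them and a threshold of 0.05. Untreated and the 3 times entered 1 fit, which takes the single untreated library to vary as the treated ones do. The siRNA comparison used the 6 treated libraries with time as a factor. SE is the size of the log2 fold change over the root of F. Named miRNAs are the 4 arms, the 3 most like each by Pearson r and the lists of GABRE-hosted and miR-29 miRNAs. Up to 3 of any other list are named, and all of the muscle and germ-cell lists. The muscle and germ-cell miRNAs, miR-122-5p and markers at 0 were named after their values were seen. Alternatives were DESeq2 1.42.0, other scales and filters, each treated library left out, both 36 h libraries left out, and the siRNA number as a block. Scripts were tested on simulated counts. Sequences came from the files and RefSeq. No pair of libraries agreed within sampling noise.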

Additional observations from a re-analysis of the deposited data

Results flagged for a closer look

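miR-105-5p lay below untreated (410 CPM) in both libraries of 24 h, with a mean of 370 CPM, and above it in both of 48 h, with a mean of 645 CPM. The test of that difference, 48 h against 24 h, gave an edgeR adjusted p of 0.316 with all libraries and 0.00393 without those of 36 h. The share of miR-767-3p among miR-767 reads (4.20% untreated) was lower in both libraries of 36 h, with a mean of 3.27%, and higher in both of 48 h, with a mean of 6.82%, and that difference was not tested. The counting intervals of both 36 h libraries (1.16 to 4.74% and 2.43 to 6.19%) included the untreated share. So did that of siRNA 2 at 48 h (3.44 to 7.69%), while that of siRNA 1 at 48 h (5.75 to 11.7%) did not. Reads given to no feature, which enter the comparisons of the arms only where all reads are the scale, made up at least 73.5% of every siRNA-treated library, against 56.9% of the untreated one.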

How the results depend on the processing

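Of 366 alternative values of the 4 arms, 319 kept their direction and their side of the threshold, 38 changed sign and 9 became calls; the cause was not tested. DESeq2 called 1 miRNA for all times, 1 at 24 h, 7 at 36 h, 12 at 48 h and 23 for 48 h against 24 h. With no count filter edgeR called 12, 2, 10, 39 and 51, and miR-767-5p at 24 h was -0.0016 and miR-767-3p at 36 h -0.10. With total miRNA counts miR-105-3p for 48 h against 24 h was 0.23, where the median of all miRNAs was 0.37.

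With all reads as the scale the calls were 120, 2, 49, 118 and 29. miR-105-5p was -0.68 over all times, -0.48 at 36 h and -0.46 at 48 h; miR-767-5p was -0.84, -0.83 at 24 h, -0.84 at 36 h, -0.85 at 48 h, -0.0186 for 48 h against 24 h and -0.0099 between the siRNAs; miR-767-3p was -0.72 over all times, -0.85 at 24 h, -1.15 at 36 h and -0.16 at 48 h. miR-105-3p over all times became a call at -1.45.

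Leaving out each treated library in turn gave 0 to 65 calls for all times, 0 to 14 at 24 h, 0 to 91 at 36 h, 0 to 113 at 48 h and 0 to 131 for 48 h against 24 h, and every count above 0 came without a 36 h library. miR-105-5p ranged from 0.15 to 0.57 and miR-767-3p from 0.22 to 0.50 over all times. Between the siRNAs they ranged from 0.20 to 0.73 and from 0.19 to 0.84. miR-105-5p ranged from -0.0426 to 1.16 at 36 h and from 0.71 to 0.95 for 48 h against 24 h, where it was called without siRNA 1 at 36 h (0.82) or siRNA 2 at 36 h (0.81). miR-767-5p ranged from -0.16 to 0.23 at 24 h and from -0.15 to 0.27 between the siRNAs, miR-767-3p from -0.30 to 0.51 at 24 h and from -0.43 to 0.38 at 36 h, and miR-105-3p from -0.20 to 0.0417 for 48 h against 24 h.

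Without both 36 h libraries the calls were 50, 13, 117 and 134 (all times, 24 h, 48 h, 48 h against 24 h), and miR-105-5p was called at 0.79 in the last. Combinations of that with another scale were chosen after seeing the data. With total miRNA counts the calls were 27, 7, 115 and 160; miR-105-5p was called at 1.01 at 48 h and 1.15 for 48 h against 24 h, miR-105-3p was 0.22 for 48 h against 24 h and miR-767-5p -0.0395 between the siRNAs. With all reads the calls were 196, 8, 185 and 59. There miR-105-5p was -0.78 over all times, -0.46 at 48 h and -0.10 between the siRNAs; miR-105-3p was called at -1.38 and, at 48 h, -1.54; miR-767-5p was -0.84, -0.83 at 24 h, -0.85 at 48 h, -0.0184 for 48 h against 24 h and -0.29 between the siRNAs; miR-767-3p was -0.51, -0.85 at 24 h, -0.16 at 48 h and -0.0478 between the siRNAs.

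With the siRNA number as a replicate block no miRNA was called and miR-767-3p at 36 h was -0.0133. The deviations of same-numbered libraries correlated at 0.0965 (24 and 36 h), -0.251 (24 and 48 h) and -0.158 (36 and 48 h). Over all miRNAs these values show no strong positive pairing, and those with 36 h rest on libraries whose labels are in doubt. Whether same-numbered libraries share an effect in some miRNAs was not tested. Depth limits miR-767-3p most, at 9 to 33 reads.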
